A study of Sus scrofa with 6 samples.

Results

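The genes described are 10 pig genes that write, read or remove N6-methyladenosine (m6A), a methyl mark on adenosines inside messenger RNA, among 25880 Ensembl genes counted in 6 oocyte libraries. They were taken by symbol: the writers METTL3, METTL14 and WTAP, the YTH-domain readers YTHDF1, YTHDF2, YTHDF3, YTHDC1 and YTHDC2, and the erasers ALKBH5 and FTO. All 10 symbols matched 1 identifier each, and 9 of the 10 had enough reads to be tested. The study asked how malathion, an organophosphate insecticide, affects the mRNA stored in pig (Sus scrofa) oocytes. Oocytes came from antral follicles of slaughterhouse ovaries and were matured in vitro to metaphase of the second meiotic division (MII). The 3 control libraries came from oocytes matured without malathion, and the 3 malathion libraries from oocytes matured with malathion at 1 mM, diluted from a 0.75 M stock in DMSO. Whether the control medium held DMSO, how many oocytes made up a library, and the age or breed of the pigs are not given in the sources used here, and nothing says that replicates were separate cultures, so p-values reflect only how much these samples spread, which may be technical.

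As background, m6A is set by a complex in the nucleus. METTL3 carries the catalytic site, METTL14 forms a heterodimer with it and helps to bind RNA, and WTAP brings the pair to its targets together with further subunits. YTH proteins bind the methylated base: YTHDF proteins act in the cytoplasm, where YTHDF2 speeds decay of the bound mRNA through the CCR4-NOT deadenylase, YTHDC1 acts in the nucleus, and YTHDC2 is an RNA helicase needed for meiotic entry. ALKBH5 and FTO are dioxygenases that can remove the mark. A fully grown oocyte transcribes little, so its RNA is mostly maternal stock, and in mouse Ythdf2 is needed in the oocyte for the clearance of maternal transcripts during maturation. RNA-seq of this kind measures the mRNA of these genes and neither their proteins nor the mark itself.

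Levels are given in CPM, which scales the reads of a gene so that the reads given to genes sum to the same total in each library. The totals lay between 25816040 and 42312341 reads, so a single read was worth at most 0.0387 CPM, and 0 reads allow a level of up to 0.0709 to 0.116 CPM (3 counts), counting error only. Both replicate 3 libraries stood apart from the other 4, with 8344 (control) and 8492 (malathion) genes detected against 12211 to 14707. The 12 matched oocyte markers, of which DNMT1 and BTG4 held the most reads in replicates 1, summed to 45710 to 121800 CPM in replicates 1 and 2 of both groups (lowest in control replicate 2) and to 6288 and 4905 CPM in control and malathion replicate 3. Single markers departed from the sum: ZP2 and MOS were highest in malathion replicate 3 (2158 and 1458 CPM, against at most 594 and 388 CPM elsewhere), and GDF9 in control replicate 2 (2650 CPM, against at most 404 CPM). Markers of cumulus and granulosa cells (13 of 15 matched) summed to 38.1 to 666 CPM in control and 68.0 to 741 CPM in malathion libraries, most of it VCAN (286 to 424 CPM in replicates 1 and 2) and KITLG (133 to 244 CPM there). CYP11A1 and STAR reached 81.6 and 24.99 CPM in malathion replicate 2, AMH was at 0 in each library, and FSHR and PTX3 were at 0.54 CPM or less. Markers of blood and endothelium summed to 0.747 to 10.7 CPM in control and 0.567 to 13.1 CPM in malathion libraries, with CDH5 at 0. The part of other cells and of these library differences in the values of the m6A genes was not tested, and in bulk RNA fewer cells of a type and less RNA per cell cannot be told apart. TMM scaling, the normalisation used for the test, raises values in both replicate 3 libraries (factors near 0.14), so an order of libraries in CPM can turn on that scale. Results are therefore given by library, and with and without the libraries that stand apart.

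Among the writers, METTL3 and METTL14 were each well covered in the 4 libraries of replicates 1 and 2 and nearly missing from both replicate 3 libraries. METTL3 (ENSSSCG00000024445) stood at 99.9, 64.7 and 0.645 CPM across control replicates 1 to 3, and at 90.3, 94.5 and 0.284 CPM across malathion replicates 1 to 3. METTL14 (ENSSSCG00000009113) stood at 90.3, 127 and 0.339 CPM in the controls and at 92.2, 125 and 1.42 CPM in the malathion libraries. The control and malathion values of both genes overlapped, and the low values fell on the replicate number, not on the treatment. In TMM-normalised CPM both genes were lowest in the replicate 3 libraries too (METTL3 at 4.58 and 2.05 against at least 18.1, METTL14 at 2.41 and 10.3 against at least 35.6). Only 19 and 12 reads of METTL3 were counted in control and malathion replicate 3, so the Wilson 95% interval there ran from 0.413 to 1.01 CPM and from 0.162 to 0.496 CPM. For METTL14 the corresponding reads were 10 and 60. This drop was shared by many genes: of the 2022 tested genes with at least 50 CPM in each library of replicates 1 and 2, 403 (19.9%) lay under 2 CPM in both replicate 3 libraries, thresholds set after the values were seen. In the RefSeq annotation TOX4 overlaps METTL3, so part of its reads may have been set aside.

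WTAP, the subunit that places the METTL3-METTL14 pair on its targets, did not share the drop. It overlaps another RefSeq gene, LOC102157641, so its count is less certain. WTAP (ENSSSCG00000004050) stood at 99.6, 55.7 and 1107 CPM across control replicates 1 to 3 and at 87.1, 108 and 74.6 CPM across malathion replicates 1 to 3. Its level in control replicate 3, from 32635 reads, was 10.3 times that of the next library, and the other 5 libraries lay between 55.7 and 108 CPM, where the groups overlapped. In TMM-normalised CPM control replicate 3 stood at 7870, and malathion replicate 3 was high as well (539, against at most 41.7 in replicates 1 and 2). At least 10 times the highest other library was reached in control replicate 3 by 103 of the 10678 tested genes (0.965%).

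**Figure D1:**
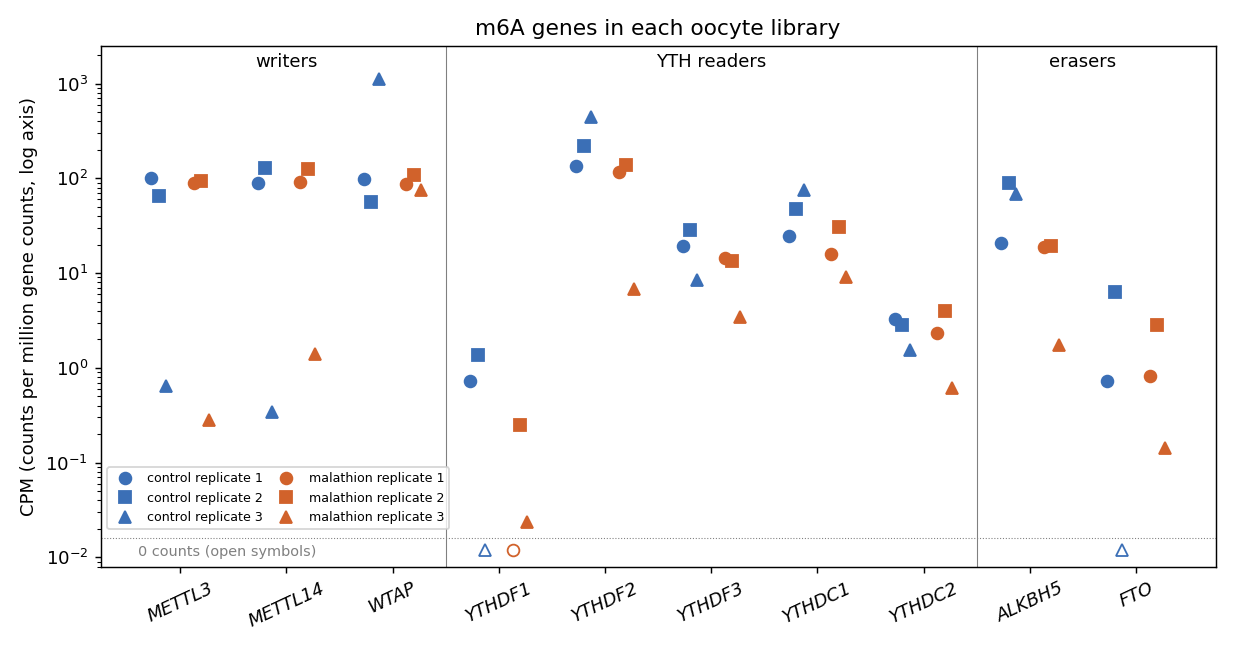
CPM of the 10 m6A genes in each library, on a log axis, with control in blue, malathion in orange, 1 symbol shape per replicate number and open symbols at the bottom for 0 counts. METTL3 and METTL14 sit between 64.7 and 127 CPM in 4 libraries and below 1.5 CPM in both replicate 3 libraries (triangles), whereas WTAP reaches 1107 CPM in control replicate 3.

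The proportions within the writer core can be compared across libraries without any scaling, since the length of each transcript and the size of the library cancel. METTL3 made up 52.5%, 33.7% and 65.5% of the METTL3 plus METTL14 reads across control replicates 1 to 3, and 49.5%, 43.1% and 16.7% across malathion replicates 1 to 3. The mean share was 50.6% ± 16 for control against 36.4% ± 17.4 for malathion (SD, n = 3 each), so the difference was smaller than the spread between replicates. The replicate 3 shares rest on 29 and 72 reads, with Wilson 95% intervals from 47.4% to 80.1% and from 9.80% to 26.9%, while those of the other libraries were at most 2.86 percentage points wide. WTAP made up 34.4%, 22.5% and 99.9% of the reads of the 3 writers across the controls, against 32.3%, 32.9% and 97.8% after malathion. In both replicate 3 libraries nearly all writer reads were thus from WTAP, with and without malathion.

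Most reads of the cytoplasmic YTHDF readers were from YTHDF2, with no allowance for transcript length, and stretches that the paralogs share make the split uncertain. YTHDF2 (ENSSSCG00000027686) stood at 137, 218 and 445 CPM across control replicates 1 to 3, and at 117, 139 and 6.74 CPM across malathion replicates 1 to 3. The groups overlapped, since malathion replicate 2 lay above control replicate 1, and the 2 extreme values were those of the replicate 3 libraries. YTHDF3 (ENSSSCG00000033144), a paralog of YTHDF2, stood at 19.1, 28.5 and 8.38 CPM in the controls and at 14.3, 13.5 and 3.45 CPM in the malathion libraries. The groups overlapped. In both groups replicate 3 was the lowest library of YTHDF3 in CPM and the highest in TMM-normalised CPM (59.6 in control and 24.96 in malathion, against at most 8.02). YTHDF1 (ENSSSCG00000040086), the third paralog, was close to absent, with 20, 37 and 0 reads in control and 0, 7 and 1 reads across malathion replicates 1 to 3. That is 0.720, 1.37 and 0 CPM against 0, 0.252 and 0.0236 CPM, and the libraries at 0 allow up to 0.102 CPM (control replicate 3) and 0.116 CPM (malathion replicate 1). YTHDF1 had too few reads for the test.

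YTHDF2 made up 87.3% and 88.0% of the reads of the 3 YTHDF genes for control replicates 1 and 2, against 89.1% and 91.0% for malathion replicates 1 and 2. Replicate 3 parted from these in opposite directions, with 98.1% in control (Wilson 95% interval 97.9% to 98.4%) and 66.0% in malathion (61.4% to 70.3%). The means were 91.2% ± 6.07 and 82.0% ± 13.9 (SD, n = 3 each), a difference smaller than the spread of the malathion libraries.

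**Figure D2:**
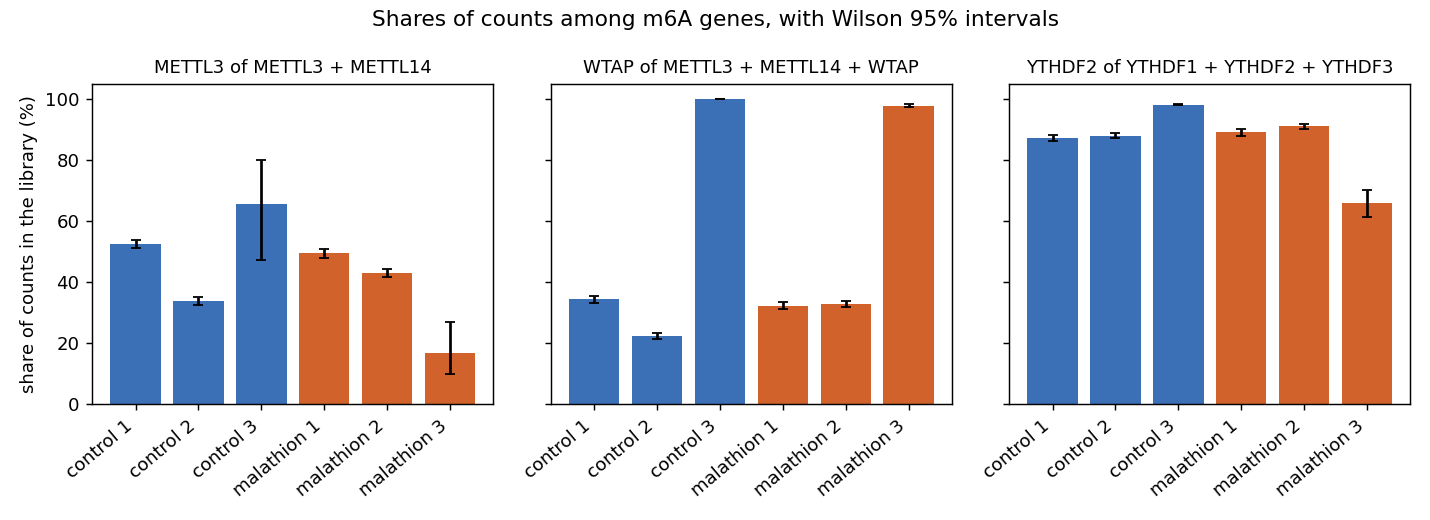
Share of counts (%) of METTL3 within METTL3 plus METTL14, of WTAP within the 3 writers and of YTHDF2 within the 3 YTHDF genes, 1 bar per library (control blue, malathion orange) with Wilson 95% intervals that cover counting error only. WTAP exceeds 97% of writer reads in both replicate 3 libraries, and the YTHDF2 share is lowest, 66.0%, in malathion replicate 3.

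The YTHDC genes differed from each other in level across libraries. YTHDC1 (ENSSSCG00000035505), the nuclear reader, stood at 24.5, 47.5 and 76.0 CPM across control replicates 1 to 3 and at 15.8, 30.5 and 9.08 CPM across malathion replicates 1 to 3. As with YTHDF2, control replicate 3 was the highest and malathion replicate 3 the lowest library in CPM, with overlap between the groups in the others. In TMM-normalised CPM malathion replicate 3 turned from the lowest library to 65.7, above the at most 13.3 of replicates 1 and 2. YTHDC2 (ENSSSCG00000014211), the helicase, was low throughout, at 3.31, 2.84 and 1.56 CPM in the controls and 2.32, 3.997 and 0.614 CPM in the malathion libraries. These values come from 26 to 111 reads per library and overlapped between the groups. Replicate 3 was the lowest library of each group in CPM and the highest in TMM-normalised CPM (11.1 and 4.45, against at most 1.495).

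Of the erasers, ALKBH5 was the only one of the 10 genes whose CPM did not overlap between the groups. ALKBH5 (ENSSSCG00000035120) stood at 20.8, 90.3 and 69.1 CPM across control replicates 1 to 3, and at 18.7, 19.6 and 1.75 CPM across malathion replicates 1 to 3. The gap between the groups was narrow, from 19.6 CPM in malathion replicate 2 to 20.8 CPM in control replicate 1, whose Wilson 95% intervals (18.0 to 21.3 CPM and 19.2 to 22.6 CPM) overlapped. Of all tested genes, 0.506% were lower after malathion without overlap in CPM, and ALKBH5 was 1 of the 9 tested m6A genes. After TMM scaling, a normalisation that assumes most genes to be alike between libraries, its groups overlapped (8.72 in control replicate 1 against 12.7 in malathion replicate 3, in normalised CPM). FTO (ENSSSCG00000035949) was low, with 20, 170 and 0 reads in control and 21, 79 and 6 reads across malathion replicates 1 to 3, or 0.720, 6.27 and 0 CPM against 0.813, 2.84 and 0.142 CPM. In both groups replicate 2 held the most FTO, and control replicate 3 allows up to 0.102 CPM. FTO made up 0% to 6.496% of eraser reads in the control and 4.16% to 12.7% in the malathion libraries.

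The comparison of malathion with control found no m6A gene that passed. With edgeR's quasi-likelihood test and Benjamini-Hochberg adjustment over 10678 genes, 0 of the 9 tested m6A genes reached an adjusted p of 0.05 (each at 0.99978), beside 0.0% of all tested genes. An unadjusted p under 0.05 was found for 2 of the 9, ALKBH5 and YTHDF2, and for 3.59% of all tested genes (383). DESeq2 and limma-voom likewise called 0 genes. Their unadjusted p was under 0.05 for 227 and 110 genes, 0 of them m6A genes, and DESeq2 gave no p for WTAP, YTHDF2, YTHDC1 and ALKBH5. The estimate was below 0 for 6 and above 0 for 3 of the 9 genes, at a median log2 fold change of −1.06, while over all tested genes it was below 0 for 5704 and above 0 for 4974, at a median of −0.08. The median of the m6A genes moved to −0.18 without control replicate 3, to −1.53 without malathion replicate 2, to −2.24 without malathion replicate 3 and to −0.27 without both replicate 3 libraries, each over 10 genes since YTHDF1 was then tested too.

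The log2 fold change of ALKBH5 was −4.22 ± 1.48 (SE), with a 95% interval from −7.39 to −1.04 and an unadjusted p of 0.0128. It was −0.84 without control replicate 3, −1.11 without both replicate 3 libraries and −0.16 when control replicate 2 was left out as well. Control replicates 2 and 3 held the highest CPM of ALKBH5. In TMM-normalised CPM, the scale of this fit, ALKBH5 stood at 8.72, 25.3 and 491 across control replicates 1 to 3. The malathion values were 8.31, 7.31 and 12.7, so control replicate 3 stood far above every other library. YTHDF2 had −4.43 ± 2.02 (−8.75 to −0.10, unadjusted p = 0.0454), and −0.21 without control replicate 3. In normalised CPM, YTHDF2 stood at 57.3, 61.1 and 3161 in control and at 51.8, 52.1 and 48.7 across malathion replicates 1 to 3, without overlap. On this scale 1.48% of all tested genes were lower after malathion without overlap. With library totals alone the estimates were −2.17 for ALKBH5 and −1.60 for YTHDF2.

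WTAP (−3.68 ± 2.56, SE) and YTHDC1 (−2.75 ± 1.55) likewise had large negative estimates that turned without control replicate 3, to 2.84 and 1.25. YTHDF3 had −1.06 ± 1.10 and YTHDC2 −0.92 ± 1.38, and both turned without the same library, to 0.59 and 1.06. METTL3 and METTL14 had estimates near 0, at 0.26 ± 1.13 and 0.36 ± 1.08, with 95% intervals from −2.16 to 2.68 and from −1.94 to 2.67. These intervals leave room for more than a 4-fold difference for METTL3 in either direction, so the data do not show that the writers were alike. The sign of METTL3 turned without control replicate 3 (−0.21), malathion replicate 1 (−0.19) or malathion replicate 2 (−0.031), and that of METTL14 without control replicate 3 (−0.16). FTO had 0.14 ± 1.53, and its sign turned with library totals alone (−0.88) and when leaving out any of 4 libraries in turn (control replicate 1 or 3, malathion replicate 2 or 3).

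**Figure D3:**
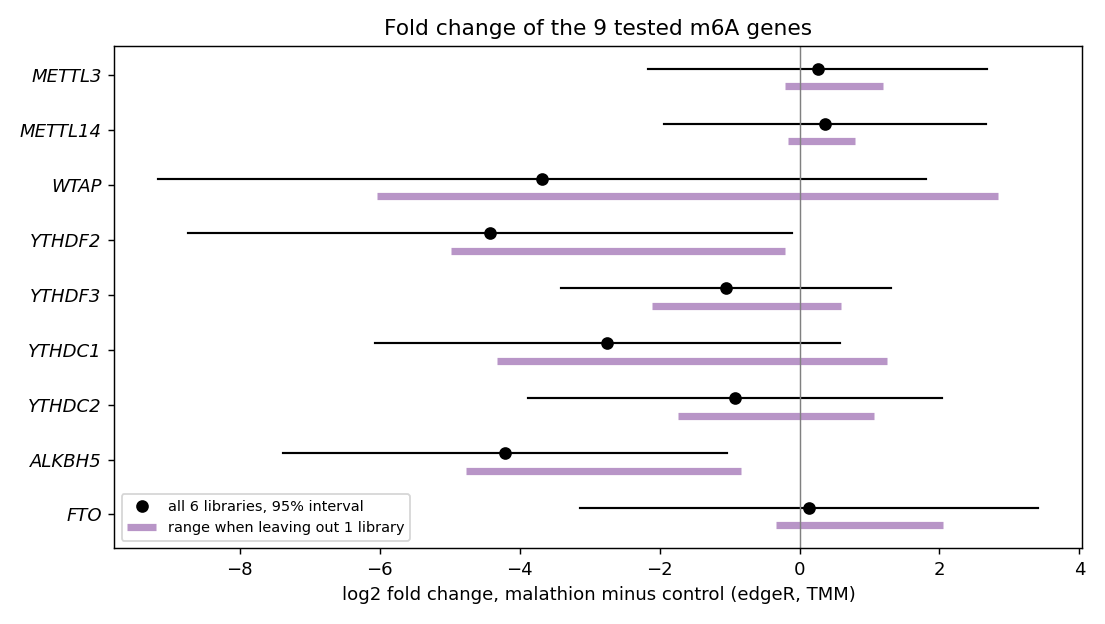
Log2 fold change of the 9 tested m6A genes, malathion minus control, with its 95% interval (black) and the range of the estimate when each of the 6 libraries is left out in turn (purple). ALKBH5 and YTHDF2 have the lowest estimates, −4.22 and −4.43, and their ranges reach −0.84 and −0.21, whereas the ranges of the other 7 genes cross 0.

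The ratio of malathion to control was also read within each replicate number. Both replicate 3 libraries deviated together across genes (r of 0.573). Replicates 1 and 2 correlated within a number (0.466 and 0.467) and across numbers (0.457 and 0.374), so their pairing rests on the number alone. In replicates 1, for which the ratio varied least over genes, the log2 ratio of CPM plus 1 lay between −0.60 for YTHDC1 and 0.08 for FTO, and 7 of the 9 genes were lower after malathion, beside 58.1% of all tested genes. In replicates 2 it lay between −2.15 for ALKBH5 and 0.94 for WTAP, with 6 of the 9 genes lower, beside 63.5% of all tested genes. In replicates 3 it lay between −5.85 for YTHDF2 and 0.85 for METTL14, with 7 of the 9 lower, beside 40.3%. The median ratio of replicates 3 over all tested genes was 0. A gene without reads in both libraries has a ratio of 0 and counts as not lower, so the remaining genes were not all higher. Over the 5331 genes averaging at least 10 CPM, the SD of this ratio was 0.37, 1.27 and 2.22 in replicates 1, 2 and 3. YTHDF2, YTHDF3, YTHDC1 and ALKBH5 were lower after malathion in each of the 3 pairs, 4 of the 9 genes, beside 14.6% of all tested genes. Genes with a ratio of 0 in any pair cannot be part of the 14.6%, whereas these 4 genes had reads in each library, so the shares are not like for like. For YTHDC1 the ratio was −0.60, −0.62 and −2.93, for YTHDF3 −0.39, −1.03 and −1.08, for YTHDF2 −0.23, −0.64 and −5.85, and for ALKBH5 −0.14, −2.15 and −4.67. With the number entered as a replicate block in edgeR, 0 of the 9 genes passed either, and none had an unadjusted p under 0.05. The blocked estimates of the 4 genes with the lowest estimates were nearer 0, at −2.22 ± 1.11 (SE) for ALKBH5, −1.61 ± 1.503 for YTHDF2, −1.22 ± 0.80 for YTHDC1 and −0.68 ± 1.47 for WTAP, and the median of the 9 genes was −0.68.

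**Figure D4:**
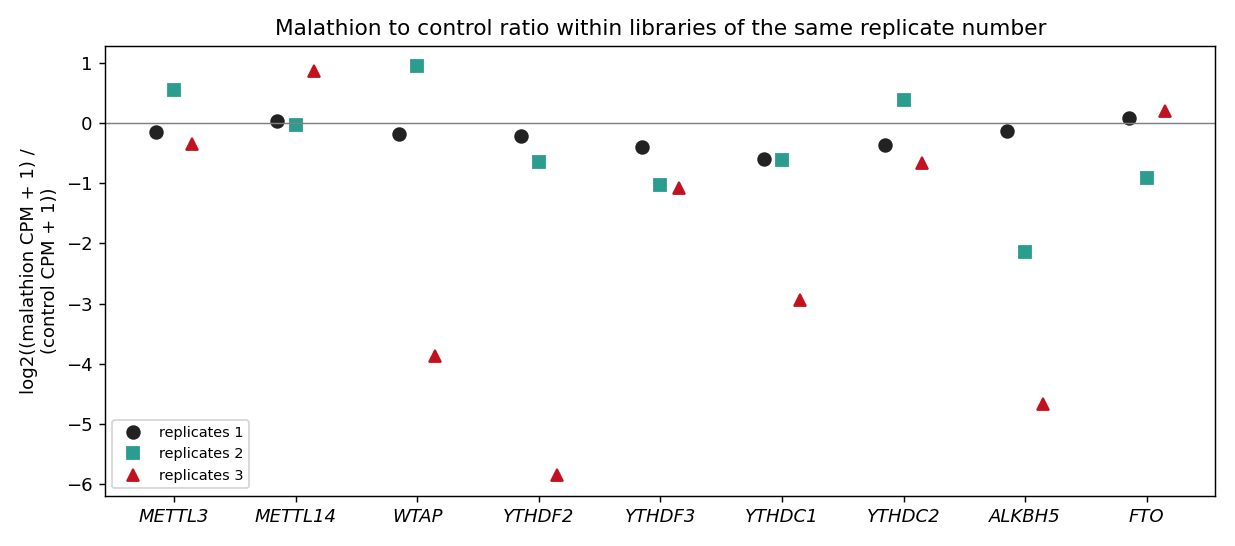
Log2 of the CPM (plus 1) after malathion over that in control for the 9 tested m6A genes, 1 point for each pair of libraries with the same replicate number. Replicates 1 (black) stay between −0.60 and 0.08, while replicates 3 (red) reach −5.85 for YTHDF2 and −4.67 for ALKBH5.

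Further genes of the m6A pathway formed a list of 44, of which 43 matched an identifier and 38 were tested. None of the 38 passed (edgeR, adjusted p of 0.99978 each), and 1 had an unadjusted p under 0.05, beside 3.59% of all tested genes. The estimate was below 0 for 24 and above 0 for 14, at a median log2 fold change of −0.17. Over all tested genes it was below 0 for 5704 and above 0 for 4974, at a median of −0.08. With library totals alone the split of the list was 31 below 0 and 7 above (7 and 2 for the m6A genes). The median over all tested genes was then also lower, at −0.33, beside −0.46 for the list and −0.88 for the m6A genes. The split over all tested genes was not counted at this setting. The median of the tested genes of the list ranged from −0.44 without control replicate 3 to 0.11 without control replicate 2, which held the highest CPM for 24 of the 38 genes and for 54.7% of all tested genes.

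The other 4 tested subunits of the writer complex were lowest in both replicate 3 libraries in CPM. In TMM-normalised CPM this turned for CBLL1 (541 and 645 in control and malathion replicate 3, against at most 274) and RBM15 (19.3 and 36.1, against at most 6.90), and VIRMA was highest in malathion replicate 3 (45.8), unlike METTL3 and METTL14. VIRMA (ENSSSCG00000006100), the scaffold of the complex, stood at 87.5, 26.4 and 3.97 CPM in control and at 76.9, 68.7 and 6.33 CPM across malathion replicates 1 to 3. ZC3H13 (ENSSSCG00000009414), a subunit that keeps the complex in the nucleus, stood at 330, 256 and 10.04 CPM against 186, 280 and 10.3 CPM. CBLL1 (ENSSSCG00000028585), also called HAKAI, stood at 586, 593 and 76.1 CPM against 548, 733 and 89.2 CPM. The groups overlapped for each of these 3 genes. The RNA-binding subunit RBM15 (ENSSSCG00000006809) lay between 2.71 and 15.6 CPM, and its relative RBM15B (ENSSSCG00000011420) reached 6.09 CPM in control replicate 2, 1.58 CPM in malathion replicate 2 and 0.324 CPM or less in the other 4 libraries, too low for the test. The log2 fold changes of the 4 tested subunits ranged from −0.10 ± 0.98 (SE) for ZC3H13 to 0.86 ± 1.15 for RBM15.

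Among the other RNA methyltransferases, METTL16, which methylates the MAT2A transcript and U6 RNA, was highest in control replicate 2. METTL16 (ENSSSCG00000017832) stood at 3.56, 28.8 and 0.238 CPM across the controls and at 4.30, 3.10 and 0.0473 CPM across the malathion libraries (log2 fold change −1.70 ± 1.37). PCIF1 (ENSSSCG00000007433), which methylates the first adenosine next to the cap, was at 2.21 CPM or less in each library. MAT2A (ENSSSCG00000022300), which makes the methyl donor S-adenosylmethionine, was the gene of the list with an unadjusted p under 0.05 and is named for it after its values were seen. It stood at 45.9, 178 and 121 CPM across the controls and at 47.0, 59.3 and 1.09 CPM across the malathion libraries (−4.18 ± 1.58, unadjusted p = 0.0185, adjusted p = 0.99978 with edgeR). As with ALKBH5, control replicates 2 and 3 were high and malathion replicate 3 low, and replicates 1 lay side by side, so that the groups overlapped.

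Among further readers, IGF2BP3, an RNA-binding protein that stabilises methylated targets, varied little in CPM outside replicate 3. IGF2BP3 (ENSSSCG00000036695) stood at 2582, 2766 and 44.9 CPM in control and at 2725, 2582 and 35.5 CPM across malathion replicates 1 to 3 (log2 fold change 0.16 ± 1.62, SE). Within replicates 1 and 2 its levels lay between 2582 and 2766 CPM, and both replicate 3 libraries were far lower. They were lower in TMM-normalised CPM too (319 and 257), where replicates 1 and 2 ran from 775 (control replicate 2) to 1208 (malathion replicate 1). Its paralogs were low: IGF2BP2 (ENSSSCG00000011795) at 0.611 to 5.08 CPM, and IGF2BP1 (ENSSSCG00000023128) at 0.0679 CPM or less in 5 libraries, with 13.5 CPM in control replicate 2. HNRNPA2B1 (ENSSSCG00000036350), a nuclear RNA-binding protein, stood at 258, 944 and 176 CPM against 198, 330 and 82.7 CPM (−1.004 ± 1.54). Control replicate 2 was its highest library in CPM. In TMM-normalised CPM both replicate 3 libraries were higher (1251 in control and 598 in malathion, against at most 264 in replicates 1 and 2). The groups overlapped on both scales. CNOT1 (ENSSSCG00000002799), the scaffold of the deadenylase that YTHDF2 recruits, stood at 19.0, 38.7 and 1.53 CPM against 17.0, 20.1 and 2.13 CPM (0.03 ± 0.95). MEIOC (ENSSSCG00000017351), the partner of YTHDC2 in germ cells, was at 1.19 CPM or less in each library and at 0 in both replicate 3 libraries.

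**Figure D5:**
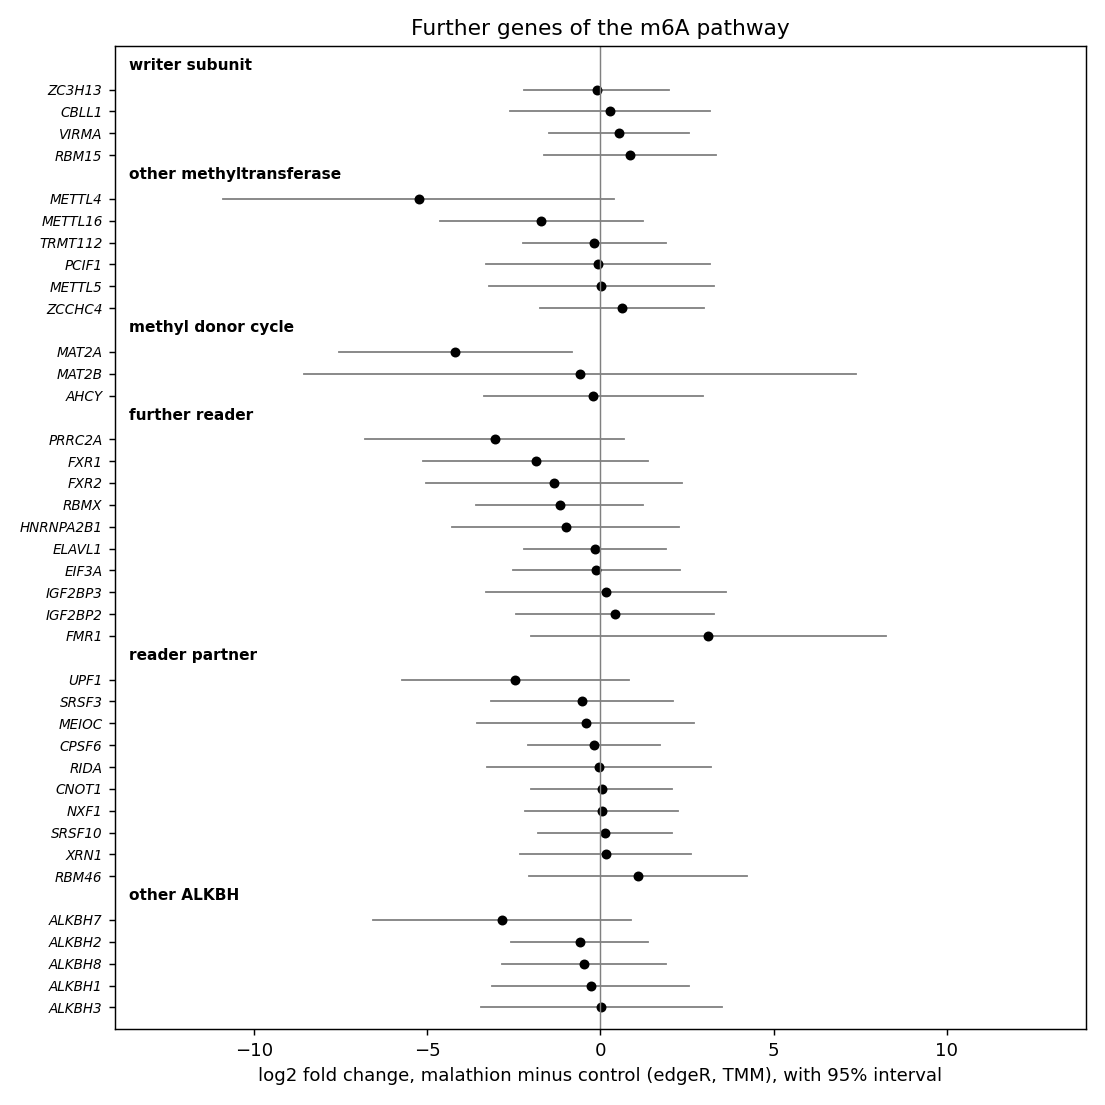
Log2 fold change, malathion minus control, of the 38 tested further genes of the m6A pathway with 95% intervals, grouped by role. MAT2A is the gene whose interval lies wholly below 0 (estimate −4.18), and 0 of the 38 genes passed after adjustment.

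Across the 6 libraries the m6A genes followed more than 1 pattern. Likeness was measured as the root mean square difference of log2(CPM + 1), centred on its mean over the 6 libraries, among 4719 other tested genes that had a symbol and averaged at least 10 CPM. The genes most like METTL3 were GINS3 (0.0727), TTC17 (0.0895) and CYCS (0.1), against a median of 1.21 over the 4719 genes. METTL14 differed from METTL3 by 0.492 (rank 460 in likeness), WTAP by 3.75 (rank 4479) and ALKBH5 by 2.75 (rank 4119). The genes most like YTHDF2 were RAB7A (0.199), WDR59 (0.247) and CWC27 (0.271), with ALKBH5 at 0.615 and YTHDC1 at 1.07 against a median of 2.23. Those most like ALKBH5 were TTC1 (0.310), FOXN3 (0.329) and ZNF532 (0.419), and YTHDF2 ranked 22 in that order. FOXN3 stood at 91.2, 317 and 405 CPM in control and at 113, 122 and 17.5 CPM across malathion replicates 1 to 3, with control replicates 2 and 3 high and malathion replicate 3 low, as for ALKBH5. These likenesses describe 6 libraries in CPM.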

How the data were processed

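The deposited files hold raw read counts per Ensembl pig gene, 1 file per library. Per the labels' protocols, polyadenylated RNA was amplified with a Smart-seq2 method and finished with a TruSeq DNA kit. The submitters' processing notes name HTSeq 0.9.1, STAR 2.5.3a and DESeq2 1.20.0; the genome build, annotation and strand setting are not given in the sources used here, so no coordinates are printed. The 5 rows of reads in no gene (36.7% to 42.6% of a file) were left out of totals and tests. In RefSeq (Sscrofa11.1), TOX4 overlaps METTL3 and LOC102157641 overlaps WTAP, so reads there may have been set aside or, without strand, mixed.

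Symbols came from a table of gene names that matched 14857 of 25880 identifiers; HNRNPC had no match. Counts were tested with edgeR 4.0.16 (R 4.3.3, limma 3.58.1): TMM factors (0.138 to 3.57), filterByExpr (minimum count 10, minimum total 15), quasi-likelihood F test, two-sided, with Benjamini-Hochberg adjustment over 10678 genes at 0.05. Each standard error is the fold change over the root of its F. The script was tested on counts simulated with far less spread between replicates than here, so this does not show its power on these data. DESeq2 1.42.0, limma-voom, other scalings, no filter, a replicate block and left-out libraries were alternatives.

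The members and lists were chosen with earlier results of these data known. All 10 members are named; of the further list, the 5 writer subunits, IGF2BP1 to IGF2BP3, HNRNPA2B1, METTL16, PCIF1, CNOT1 and MEIOC; and the 3 genes most like METTL3, YTHDF2 and ALKBH5. Libraries were paired by replicate number, whose meaning the sources used here leave unstated. Within a number, r across genes was 0.466, 0.467 and 0.573 for replicates 1, 2 and 3. Control replicate 1 with malathion replicate 2 gave 0.457, and control replicate 2 with malathion replicate 1 gave 0.374. These correlations therefore do not single out the pairs of replicates 1 and 2, which rest on the number alone. Intervals on counts are Wilson 95% intervals, and PCR copies without molecular identifiers are not independent molecules.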

Additional observations from a re-analysis of the deposited data

How the results depend on the processing

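No m6A gene and no gene of the further list passed in any of the alternatives run, though DESeq2 gave no p for WTAP, YTHDF2, YTHDC1 and ALKBH5. Over all genes 0 passed except without the filter on low counts (60 genes) and without malathion replicate 1 or malathion replicate 2 (3 genes each; 0 to 3 when leaving out 1 library). The median of the tested m6A genes ranged from −2.24 to −0.18 when leaving out 1 library, and was −0.27 without both replicate 3 libraries and −0.15 without these and control replicate 2, a fit in which the lone control is assumed to vary like the others. Of 126 estimates of single m6A genes under an alternative, 108 kept their direction and 18 turned. When leaving out 1 library, METTL3 ranged from −0.21 to 1.196, METTL14 from −0.16 to 0.80, WTAP from −6.04 to 2.84, YTHDF3 from −2.11 to 0.59, YTHDC1 from −4.32 to 1.25, YTHDC2 from −1.74 to 1.06 and FTO from −0.34 to 2.05. METTL3 also turned with the replicate block (−0.027) and without control replicate 2 and both replicate 3 libraries (−0.16). Without both replicate 3 libraries WTAP (0.46), YTHDC2 (0.21) and FTO (−0.52) turned, and FTO with library totals alone (−0.88). Library totals alone moved the median of all genes from −0.08 to −0.33. With CPM on all reads of a file, a larger total by construction, each of the 20 group means was lower, at 57.9% to 62.5% of the main value; this exceeded the replicate SD for WTAP in malathion (55.1 in place of 89.7) and YTHDC2 in control (1.54 in place of 2.57). The replicate block, which follows the pairing by number, changed no call and moved the median of the m6A genes from −1.06 to −0.68. In both replicate 3 libraries 10 to 60 reads of METTL3 and METTL14 limit what depth can show.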

Other observations

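Other members of the ALKBH family, dioxygenases named after a bacterial DNA repair enzyme, were measured beside ALKBH5 and FTO. Of the 5 tested, 4 had an estimate below 0 and 1 above, beside 5704 below and 4974 above over all tested genes. The estimates ran from −2.83 to 0.03 on the log2 scale. With edgeR 0 passed, and 0 had an unadjusted p under 0.05, beside 3.59% of all tested genes. ALKBH1 (ENSSSCG00000025906) stood at 28.7, 82.9 and 0 CPM in control and at 33.3, 32.0 and 0.331 CPM across malathion replicates 1 to 3, so it shared with ALKBH5 the high value of control replicate 2 and not that of control replicate 3. ALKBH7 (ENSSSCG00000024254), a mitochondrial member, reached 10.1 CPM in control replicate 2, against 0.540 CPM or less elsewhere. Both genes are named after their values were seen.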
